A study of Mus musculus with 25 samples.

Results

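The genes described here are 8 melanocyte growth factor receptors and ligands, chosen by symbol out of the 55385 genes of the count tables: the ligands Kitl, Edn1, Edn3 and Hgf, and the receptors Kit, Ednra, Ednrb and Met. They were followed by bulk RNA sequencing through 5 mouse melanoma cell lines, with 5 libraries of untreated cells per line harvested at 50% confluency. In the study WT31, B16F10 luc2 and RET are the lines with high or intermediate liver metastasis (HIM-melanoma), and D4M and HCmel12 are the lines with low liver metastasis (LM-melanoma). The question put to each gene was how its level was ordered over the lines and whether HIM- and LM-melanoma stood apart.

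WT31 came from Tyr::Nras Q61K/°; INK4a-/- mice, in which the tyrosinase promoter drives mutant Nras in pigment cells. B16F10 luc2 is a purchased line with many mutations, among them in Trp53, and RET (RET1) came from MT/RET transgenic mice, in which the metallothionein promoter drives human RET. D4M came from mice with Tyr::CreER, where the tyrosinase promoter drives Cre, and the BrafCA allele. HCmel12 came from a primary melanoma of HGF-CDK4(R24C) mice, which carry an HGF transgene. Counts from such a transgene, where its sequence matches mouse Hgf, and counts from the resident Hgf gene cannot be told apart in these gene tables. Each line stands for 1 model. WT31, B16F10 luc2 and RET were kept in the same medium, HCmel12 in that medium with supplements and D4M in another medium with less serum, so in comparisons with HCmel12 or D4M line and medium cannot be told apart.

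Melanocytes arise from neural crest cells and depend on growth factors that their neighbours supply. Kit is a receptor tyrosine kinase whose ligand, Kitl (stem cell factor), is made by keratinocytes and fibroblasts of the skin and supports the survival and migration of melanoblasts. Ednrb is a G protein-coupled receptor that binds endothelins, with Edn3 as its ligand in melanocyte development, while Ednra prefers Edn1 and is best known from smooth muscle. Met is the receptor tyrosine kinase for Hgf (scatter factor), which stromal cells secrete and which stimulates growth and motility of melanocytes.

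The 25 libraries held 24199083 to 25843286 estimated counts each, and log2 levels correlated at 0.984 or more between libraries of a line and at 0.958 or less between lines. Levels are given as counts or as counts scaled to the library totals after adjustment by the TMM factors named under the processing (CPM). Where 2 genes are compared, they are given as values scaled for transcript length (TPM). No TPM of D4M replicate 1 entered the means, so those of D4M have n = 4. Of the 8 genes, 6 passed the filter on low counts; Edn1 and Edn3 did not. The melanocytic markers Mitf, Sox10, Dct, Mlana, Pmel, Tyr and Tyrp1 summed to 12019 CPM or more in every library of 4 lines but to 6.54 to 59.6 CPM in D4M, so the D4M libraries nearly lacked the defining transcripts of the labelled cell type. D4M replicate 1, with 233 counts of Dct, and HCmel12 replicate 4, with 124995, stood apart from the other libraries of their lines; without both, no call of the 6 tested members in a pair of lines changed, nor did those of Ece1 and Plau. The 4 mast cell markers and the 2 keratinocyte markers did not exceed 3 counts in any library. The 5 fibroblast markers summed to 312 to 791 CPM in D4M and to at most 15.4 CPM elsewhere; this was Col3a1, Pdgfra and Pdgfrb, while Dcn averaged 0.334 CPM and Lum was at 0. Of the 3 endothelial markers, Kdr alone averaged 30.9 CPM in HCmel12 and at most 0.0885 CPM elsewhere, while Pecam1 was lowest in HCmel12 (0.108 CPM) and Cdh5 was at 0 there. The part of these genes in the results below was not tested. In bulk libraries, fewer cells that use a gene and less RNA per cell cannot be told apart.

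All 8 genes had a RefSeq promoter window (GRCm38.p6, 250 bases before to 50 after the start), 10 windows in all. A single window each of Kit, Ednrb and Hgf is shown because their line means spanned the widest range of the 6 tested genes. The range was 7.56 units for Hgf, 9.98 for Kit and 10.91 for Ednrb, on log2 CPM with a constant added before the log. That constant shortens the range of genes near 0. Only bases outside GENCODE vM21 exons are given, 5′ to 3′ on the gene's strand, with matches to 4 short motifs in capitals. The windows lie at chr5:75574737-75574915 for Kit (plus strand, upstream of the gene), chr14:103843702-103843951 for Ednrb (minus strand, in the first intron of its longest transcript and upstream of the shorter ones) and chr5:16553245-16553494 for Hgf (plus strand, upstream of the gene).
Kit: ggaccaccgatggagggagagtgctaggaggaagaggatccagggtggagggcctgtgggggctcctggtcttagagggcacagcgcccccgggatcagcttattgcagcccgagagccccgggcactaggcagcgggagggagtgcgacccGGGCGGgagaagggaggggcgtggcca
Ednrb: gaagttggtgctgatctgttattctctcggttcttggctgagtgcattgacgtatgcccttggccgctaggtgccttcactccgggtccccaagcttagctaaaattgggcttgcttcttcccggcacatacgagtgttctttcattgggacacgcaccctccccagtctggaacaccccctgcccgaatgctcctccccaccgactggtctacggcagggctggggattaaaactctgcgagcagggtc
Hgf: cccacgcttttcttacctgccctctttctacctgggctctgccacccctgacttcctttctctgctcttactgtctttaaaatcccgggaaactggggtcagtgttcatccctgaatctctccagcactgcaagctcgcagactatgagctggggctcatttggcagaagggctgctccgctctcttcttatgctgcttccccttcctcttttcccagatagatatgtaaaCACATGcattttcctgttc

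The motifs searched on both strands were CACGTG and CATGTG, E-box forms that bHLH factors such as Mitf bind, TGANTCA, bound by AP-1, and GGGCGG, bound by Sp1; no 2 of the matches shown overlap. Over all 32851 windows of 300 bases, CACGTG was found in 7.15%, CATGTG in 14.2%, TGANTCA in 7.81% and GGGCGG in 35.7%. The Kit window held 1 GGGCGG and the Hgf window 1 CATGTG (read as CACATG on the strand shown), while the Ednrb window held none of the 4. Of the windows not shown, a second Kit window that begins 4 bases further in also held 1 GGGCGG, and a second Hgf window (chr5:16553651-16553750 outside exons) held none of the 4. The window of Met held 1 CACGTG, 1 TGANTCA and 3 GGGCGG, that of Kitl 3 GGGCGG, and those of Ednra, Edn1 and Edn3 none. A match describes the letters of a window and is not a measured binding site.

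The Kit ligand Kitl (ENSMUSG00000019966.18, GRCm38 chr10:100015630-100100416, plus strand) was lowest in WT31 and highest in D4M, with both LM-melanoma above all HIM-melanoma. In replicates 1 to 5, Kitl had 11, 5, 10, 9 and 7 counts in WT31. B16F10 luc2 held 176, 194, 152, 168 and 169 counts, and RET 116, 165, 196, 141 and 164. HCmel12 held 831, 762, 925, 712 and 820, and D4M 2856, 3146, 2917, 3113 and 3395. B16F10 luc2 and RET overlapped, and no other lines did. The means rose from 0.320 ± 0.0941 CPM (SD, n = 5) in WT31 through 6.08 ± 1.14 in RET, 6.94 ± 0.683 in B16F10 luc2 and 32.6 ± 3.35 in HCmel12 to 137 ± 6.12 in D4M. Across the 10 pairs of lines, 9 passed the test (limma, adjusted p under 0.05). D4M exceeded HCmel12 by 2.07 ± 0.07 (SE) on the log2 scale (adjusted p = 1.24e-19), and the smallest step between HIM- and LM-melanoma, B16F10 luc2 below HCmel12, was -2.23 ± 0.10 (adjusted p = 3.78e-16). B16F10 luc2 and RET differed by 0.20 with a 95% interval of -0.06 to 0.47 (adjusted p = 0.199), within the spread of the libraries.

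The receptor Kit (ENSMUSG00000005672.12, GRCm38 chr5:75574916-75656722, plus strand) followed another order, highest in WT31, then HCmel12, B16F10 luc2, RET and, near 0, D4M. WT31 held 13562, 11577, 13903, 11917 and 18982 counts, and HCmel12 3041, 2929, 3276, 3418 and 2214. B16F10 luc2 held 222, 169, 123, 140 and 203 counts, RET 16, 11, 24, 33 and 10, and D4M 1, 0, 0, 0 and 1. No 2 lines overlapped. The means were 530 ± 104 CPM in WT31, 120 ± 18.7 in HCmel12, 6.89 ± 1.51 in B16F10 luc2, 0.738 ± 0.396 in RET and 0.0177 ± 0.0243 in D4M (SD, n = 5). Kit was called in all 10 pairs of lines, which 7.19% of the 15247 tested genes were. WT31 exceeded HCmel12 by 2.14 ± 0.11 (SE) on the log2 scale (adjusted p = 3.76e-15) and B16F10 luc2 by 6.27 ± 0.19 (adjusted p = 4.6e-20). B16F10 luc2 exceeded RET by 3.33 ± 0.41 (adjusted p = 2.03e-07). Against D4M, which had 2 counts in all, the ratio of summed counts per depth was 41.2 for RET, with an exact 95% interval of 11.1 to 345 that covers counting error only, and 29967 for WT31 (8295 to 247454). The D4M counts lie under 3 per library, so these ratios are not comparable with bounds set against that level. Kit thus did not separate HIM- from LM-melanoma: HCmel12 lay between WT31 and B16F10 luc2, and D4M below all 3 HIM lines.

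Beside each other on the TPM scale, receptor and ligand changed places along the lines. In WT31 Kit averaged 172 TPM and Kitl 0.193 TPM, and in HCmel12 Kit averaged 34.7 TPM and Kitl 9.47 TPM. In B16F10 luc2 the means were close, 2.05 TPM for Kit and 1.83 TPM for Kitl, and their libraries overlapped. In RET Kitl (1.86 TPM) lay above Kit (0.303 TPM), and in D4M Kitl averaged 34.0 TPM where Kit averaged 0.00476 TPM. The line with most Kit had least Kitl and the line with most Kitl had least Kit, but HCmel12 was second in both. Only 5 lines were compared, so no correlation is given.

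**Figure D1:**
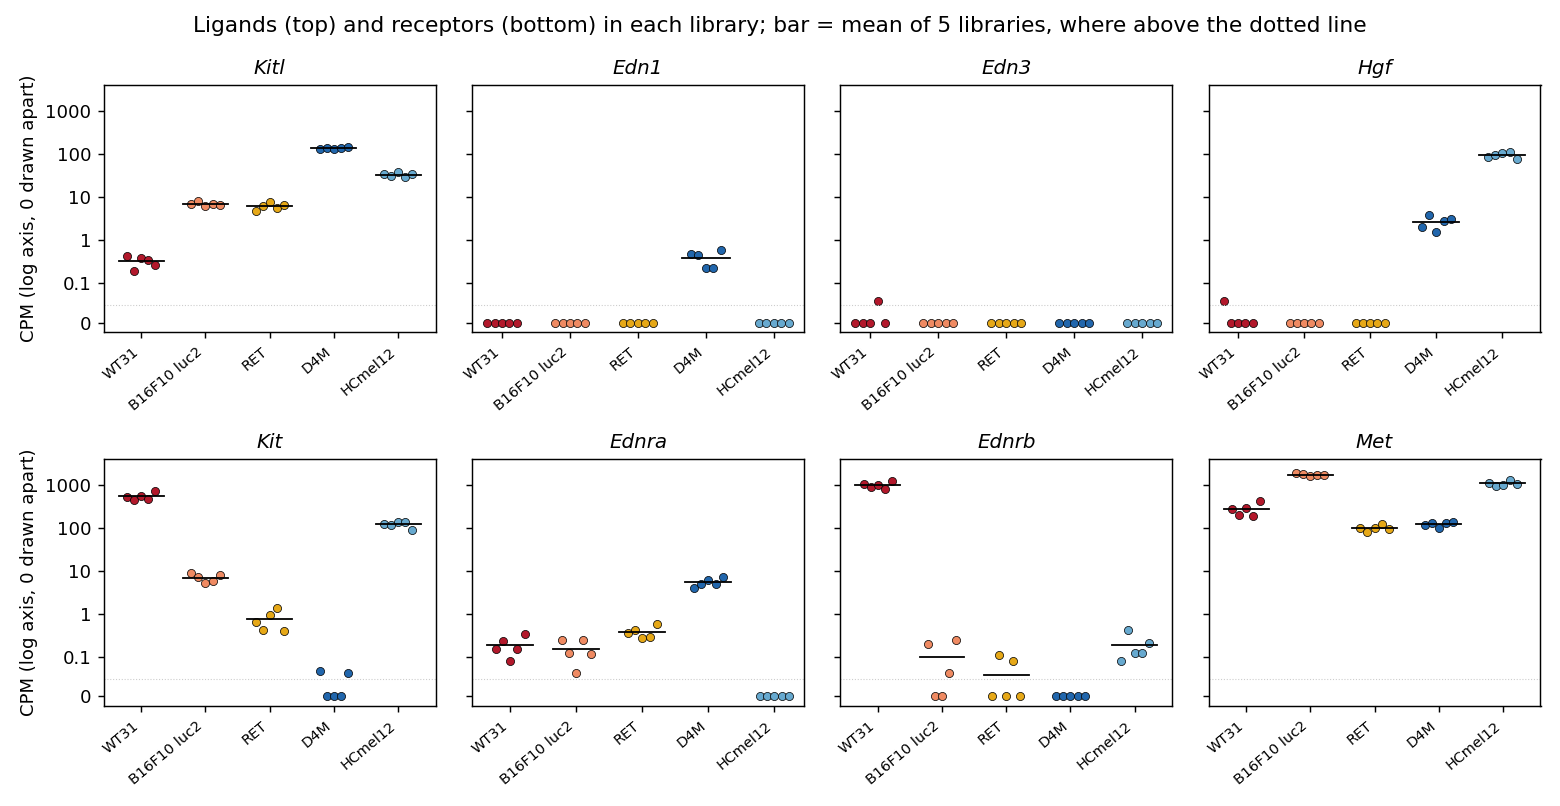
Each point is 1 library and each panel 1 gene, with CPM on a log axis, 0 drawn below the dotted line, and the bar at the mean of the 5 libraries of a line. Ednrb averaged 974 CPM in WT31 and at or close to 0 elsewhere, Hgf was seen in D4M and HCmel12, and Met was above 80 CPM in every library.

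Of the endothelin genes, the receptor Ednrb (ENSMUSG00000022122.15, GRCm38 chr14:103814625-103844402, minus strand) was abundant in WT31 and almost absent from the other 4 lines. WT31 held 27099, 23272, 25343, 20243 and 32505 counts, or 974 ± 159 CPM (SD, n = 5). B16F10 luc2 held 5, 0, 0, 1 and 6.24 counts, RET 0, 3, 0, 2 and 0, HCmel12 2, 10.2, 3, 3 and 5, and D4M 0 in every library. The WT31 libraries lay far above all others, which overlapped among themselves except that those of HCmel12 were all above D4M. WT31 exceeded HCmel12 by 12.38 ± 0.47 (SE) on the log2 scale (adjusted p = 6.93e-18) and B16F10 luc2 by 13.77 ± 0.58 (adjusted p = 4.74e-17). As ratios of summed counts these were 5267 (exact 95% interval 3510 to 8309) and 10077 (5769 to 19503). B16F10 luc2 averaged under 3 counts per library, so its ratio is not comparable with a bound set at that level. Against D4M, set to 3 counts per library, Ednrb in WT31 was at least 7321-fold higher. On log2 CPM with a constant added before the log, a level of 0 is raised and the ranges are shorter than these folds. On that scale, 0.21% of the tested genes had line means more than 10 units apart, Ednrb among them. In WT31 Ednrb averaged 407 TPM, above Kit (172 TPM) and Met (70.8 TPM) in each of the 5 libraries.

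Among the lines with little Ednrb, the test called D4M below HCmel12 (adjusted p = 0.00147), which was lost on log2(TPM + 1) (adjusted p = 0.33). It also called RET below HCmel12 (ratio 4.76 for HCmel12, exact 95% interval 1.77 to 16, adjusted p = 0.0176), but the adjusted p was 0.0504 without HCmel12 replicate 2, 0.329 without the filter and 0.423 on log2(TPM + 1). B16F10 luc2 did not pass against D4M (adjusted p = 0.0879) or HCmel12 (adjusted p = 0.102). With a replicate block in limma it passed against both, at adjusted p of 0.0115 for D4M and 0.0213 for HCmel12. The count models did call it above D4M, with adjusted p of 0.00075 for DESeq2 and 0.0201 for edgeR's quasi-likelihood test. In limma, leaving out B16F10 luc2 replicate 2 or 3 brought the comparison with D4M to 0.0376 and 0.0382, and leaving out B16F10 luc2 replicate 1 or 5 brought that with HCmel12 to 0.049 and 0.0413. All of these rest on at most 10.2 counts per library.

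Ednra (ENSMUSG00000031616.7, GRCm38 chr8:77663031-77724464, minus strand), the other endothelin receptor, was low throughout and highest in D4M. D4M held 87, 112, 133, 113 and 166 counts, or 5.39 ± 1.16 CPM (SD, n = 5). RET held 9, 11, 7, 7 and 15 counts, WT31 4, 6, 2, 4 and 9, B16F10 luc2 6, 3, 1, 6 and 3, and HCmel12 0 in every library. D4M and HCmel12 overlapped no other line, WT31 overlapped both B16F10 luc2 and RET, and the latter 2 did not overlap. D4M exceeded RET by a ratio of 14.2 (exact 95% interval 10.6 to 19.4), WT31 by 28.5 (19.1 to 44.4) and B16F10 luc2 by 35.3 (22.4 to 59.1), with adjusted p of 8.64e-13, 1.38e-13 and 1.01e-13. Against HCmel12, set to 3 counts per library, it was at least 44.6-fold higher. WT31 and B16F10 luc2 did not pass (log2 difference 0.32, 95% interval -0.55 to 1.18, adjusted p = 0.512), and without B16F10 luc2 replicate 3 the difference was -0.002. RET lay above WT31 (ratio 2.01, 1.22 to 3.39, adjusted p = 0.0179), which did not hold without RET replicate 5 (adjusted p = 0.0557) or WT31 replicate 3 (adjusted p = 0.0706), nor on log2(TPM + 1) (-0.089, adjusted p = 0.186). On log2(TPM + 1), Ednra also no longer passed between HCmel12 and WT31 (adjusted p = 0.0827) or B16F10 luc2 (adjusted p = 0.203). The same scale lost the call between B16F10 luc2 and RET (adjusted p = 0.105). In each line except D4M, Ednra averaged at most 0.155 TPM. A share of 1.29% of its 31-base words also occurs in transcripts of other genes.

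Both endothelin ligands fell below the filter. Edn1 (ENSMUSG00000021367.8, GRCm38 chr13:42301476-42307990, plus strand) had 10, 10, 5, 5 and 14 counts in D4M, or 0.389 ± 0.163 CPM (SD, n = 5), and 0 in all 20 other libraries. An exact two-sided permutation test of D4M against each other line gave p = 0.0079 in each of 4 comparisons (0.0079 after Benjamini-Hochberg adjustment over the 4), the smallest p that 5 against 5 libraries can give. Without D4M replicate 1 and HCmel12 replicate 4 the same exact test gave 0.029 against HCmel12 and 0.0079 against each of the other lines. Because D4M alone had counts and all other libraries were at 0, these p-values restate that observation and add no support to it. Set against 3 counts per library, the excess of Edn1 in D4M was at least 3.21-fold over B16F10 luc2, the smallest of the 4 bounds, and at least 3.41-fold over WT31, the largest. Edn3 (ENSMUSG00000027524.9, GRCm38 chr2:174760619-174784042, plus strand) had 1 count, in WT31 replicate 4, over all 25 libraries. At 3 counts per library, a level up to about 0.114 CPM in WT31 and 0.133 CPM in D4M would not have been detectable. D4M was the line with both Edn1 and most Ednra, at 0.247 TPM and 2.16 TPM, and WT31, with most Ednrb, had neither ligand above 1 count.

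Hgf (ENSMUSG00000028864.7, GRCm38 chr5:16553495-16620152, plus strand), the Met ligand, was detected in both LM-melanoma and was at or near 0 in HIM-melanoma. HCmel12 held 2093, 2412, 2532, 2806 and 1917 counts, and D4M 43, 84.2, 35, 63.6 and 72. WT31 held 1, 0, 0, 0 and 0, and B16F10 luc2 and RET 0 in every library. The 3 HIM lines overlapped one another, and neither LM line overlapped any other line. HCmel12 exceeded D4M by 5.21 on the log2 scale (SE 0.18, adjusted p = 3.23e-19). With B16F10 luc2 and RET set to 3 counts per library, D4M was at least 21.7-fold higher than the former and at least 22.5-fold higher than the latter. The same bounds for HCmel12 were at least 782-fold and 811-fold. Against the 1 count of WT31 the ratios were 348 for D4M (exact 95% interval 61.9 to 13781) and 12470 for HCmel12 (2238 to 492595). That count lies under the level of 3 counts per library, so these ratios are not comparable with the bounds for the other HIM lines. A share of 6.31% of the 31-base words of Hgf also occurs in transcripts of other genes. Gm43489 ranked first among these genes by shared words, and reads from these stretches could be divided between the genes.

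The counts and TPM of a library together give the mean length of the transcripts to which a gene's reads were assigned, and for Hgf this length differed between the lines that expressed it. The measure was chosen after the values were seen; on genes with a single transcript its median error was at most 0.088%, which does not cover the assignment of reads among several transcripts. For Kitl in RET, at 116 to 196 counts, it ran from 3503 to 5647 bases within the line, and Kitl lengths of HCmel12 (4191 to 5278 bases) and D4M (5300 to 5474 bases) did not overlap. In HCmel12 the mean length was 2450 ± 24.4 bases (SD, n = 5) with a range of 2416 to 2475, and in D4M it was 2822 ± 197 bases (SD, n = 4) with a range of 2616 to 3072. The groups did not overlap, and an exact two-sided permutation test gave p = 0.0079, the smallest p of 126 arrangements (exact p = 0.029 without HCmel12 replicate 4). The D4M values rest on 35 to 84.2 counts. The annotated coding transcripts of Hgf have 2189, 2642 and 3468 bases, and its retained-intron transcripts 1633, 2746 and 3375 bases. The mean length alone therefore does not name the transcripts in use. Which transcripts made the difference, and the part of the HGF transgene in HCmel12, was not tested. For Kit, the same length lay between 4652 and 5212 bases in all libraries with 30 or more counts, and the libraries of WT31, B16F10 luc2 and HCmel12 overlapped.

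Met (ENSMUSG00000009376.15, GRCm38 chr6:17463800-17573980, plus strand) was the 1 gene of the 8 with at least 2180 counts in every library. B16F10 luc2 held 45762, 43642, 38646, 41081 and 42703 counts, HCmel12 27231, 23656, 24358, 32440 and 25496, and WT31 7113, 5238, 7348, 4944 and 11250. D4M held 2565, 2814, 2223, 2912 and 3112, and RET 2417, 2180, 2528, 3063 and 2376. RET and D4M overlapped and no other lines did. The means were 1710 ± 99.4 CPM in B16F10 luc2, 1073 ± 143 in HCmel12, 272 ± 90.5 in WT31, 121 ± 13.3 in D4M and 98.0 ± 15.4 in RET (SD, n = 5). B16F10 luc2 exceeded HCmel12 by 0.68 ± 0.14 (SE) on the log2 scale (adjusted p = 0.000172), which is under the limit of 1 tried as an alternative, and WT31 exceeded D4M by 1.12 ± 0.15 (adjusted p = 1.62e-07). The order of the means alternated between HIM- and LM-melanoma. RET and D4M differed by -0.31 with a 95% interval of -0.62 to 0.004 (adjusted p = 0.0673). The call depended on the setting: adjusted p ran from 0.0203 without WT31 replicate 5, 0.0281 without RET replicate 4 and 0.0297 without D4M replicate 3 to 0.178 without RET replicate 2. Under the remaining alternatives it ran from 0.0131, with only the libraries of both lines, through 0.0387 with DESeq2 and 0.0453 with DESeq2 size factors, to 0.537 with library size alone, where the difference was -0.10.

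On the TPM scale Met lay above Hgf in all 24 libraries with TPM values. In HCmel12 Met averaged 245 TPM and Hgf 57.3 TPM, and in D4M Met averaged 26.5 TPM and Hgf 1.37 TPM. B16F10 luc2 had the most Met, at 400 TPM, with Hgf listed at 0. HCmel12 was the line in which receptor and ligand were both above 10 TPM in every library; for Kit and Kitl no line reached this in every library.

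**Figure D2:**
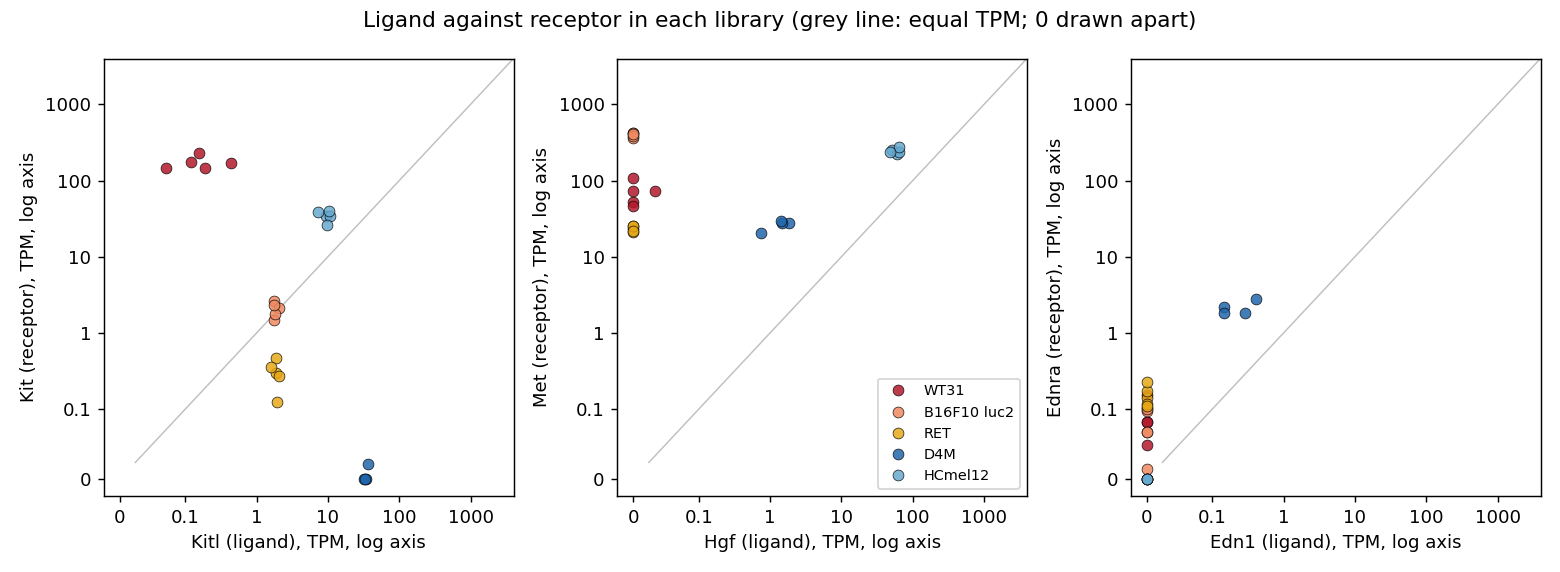
Each point is 1 library, with the TPM of the ligand on the horizontal and of the receptor on the vertical log axis, 0 drawn apart and the grey line at equal TPM. For Kitl and Kit the lines run from 172 TPM of receptor in WT31 to 34.0 TPM of ligand in D4M, and for Hgf and Met all points lie above the grey line.

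Between WT31 and B16F10 luc2 4 of the 6 were called, where 72.8% of all tested genes were, and between WT31 and RET 5, where 73.2% were. Between WT31 and D4M (76.1% of all genes), WT31 and HCmel12 (70.4%), RET and HCmel12 (67.2%) and D4M and HCmel12 (72.5%) all 6 were called. Between B16F10 luc2 and D4M (77.7%) and between B16F10 luc2 and HCmel12 (69.1%) 5 were called, between RET and D4M (77.1%) 4, and between B16F10 luc2 and RET (51.5%) 3. The counts of the members lay on both sides of the shares over all genes, which leaves nothing particular to the members in the number of calls. Ednrb, Ednra and Hgf passed the filter through the lines in which they were high, so a difference was built into their selection.

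In the comparison of HIM- with LM-melanoma, each HIM line was set against each LM line, and a gene counted where all 6 differences passed with one sign. Kitl and Hgf were lower in HIM-melanoma in all 6, and none of the 6 tested genes was higher in all 6. Hgf passed the filter only through the LM lines, so its direction was built into its selection and its call adds no support. In HCmel12, counts of the HGF transgene, where it matches mouse Hgf, cannot be told apart from those of the resident gene. Over all tested genes 6.4% were lower, 6.53% higher and 12.9% had one sign in either direction. The 6 comparisons share libraries. Kitl and Hgf kept this result under each alternative tried. Kit, Ednrb, Ednra and Met changed sign between comparisons or did not pass in each: Kit, for instance, was higher in WT31 than in HCmel12 but lower in B16F10 luc2 (-4.12 ± 0.19 on the log2 scale) and RET (-7.45 ± 0.39).

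**Figure D3:**
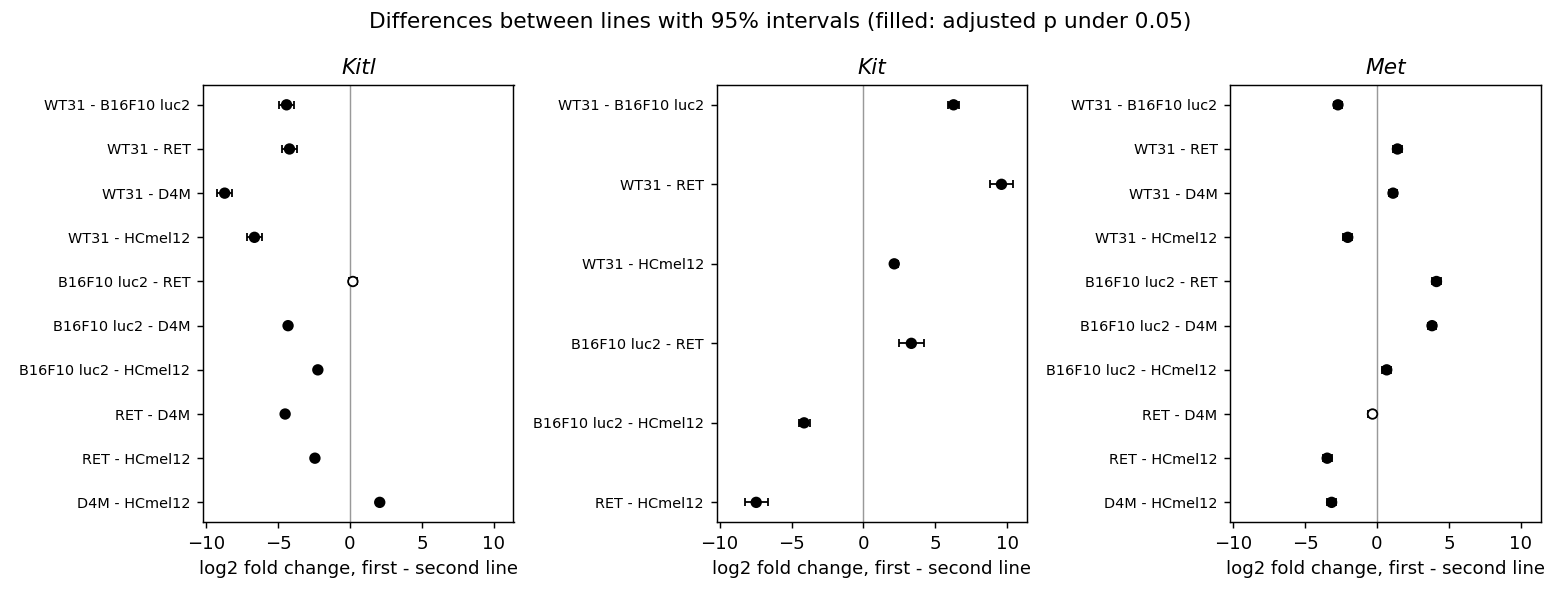
Each point is the log2 fold change between 2 lines (first minus second) with its 95% interval from the fit of all 25 libraries; filled points have an adjusted p under 0.05, and pairs of Kit with D4M are left out because D4M had 2 counts. Kitl lies below 0 in every comparison of HIM- with LM-melanoma, whereas Kit and Met fall on both sides.

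Of 54 other genes of these pathways, 48 were tested, and 8 of them had one sign in all 6 comparisons: 2 were higher and 6 lower in HIM-melanoma, where 12.9% of all tested genes had one sign, 6.53% higher and 6.4% lower. A count of 8 of 48 lies near that share and is no result about these pathways. In the Kit arm (15 of 16 tested), the phosphatase Ptpn6, which dampens Kit signalling, was higher, at 6.68 to 16.7 CPM in HIM lines against 3.27 CPM in D4M and 2.40 CPM in HCmel12. The ubiquitin ligase Cbl, which promotes the removal of activated receptors, was lower, at 51.2 to 56.9 CPM against 82.0 and 99.2 CPM. In the Hgf-Met arm (17 of 21 tested), Itgb4, an integrin subunit that can act with Met, was higher, at 51.8 CPM in RET, 3.07 CPM in B16F10 luc2 and 2.48 CPM in WT31 against 1.48 CPM in D4M and 0.958 CPM in HCmel12. In the endothelin arm (16 of 17 tested), none was higher and Ece1, Grk2, Grk6, Plcb3 and Prkca were lower. The count of 8 fell to 2 when a change of at least 2-fold was required.

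Ece1, the protease that cuts big endothelin to its active form, spanned the widest range of these 8 genes. Its mean rose from 0.137 ± 0.103 CPM (SD, n = 5) in WT31 through 3.93 ± 0.409 for B16F10 luc2, 5.15 ± 0.698 for RET and 28.9 ± 2.21 for D4M to 107 ± 10.5 for HCmel12. Each pair of lines passed except B16F10 luc2 and RET (log2 difference -0.39, adjusted p = 0.0979). Ece1 was thus lowest in WT31, the line with most Ednrb, and highest in HCmel12, where Ednra had 0 counts and Ednrb at most 10.2. The receptor kinases Grk2 and Grk6, which desensitise G protein-coupled receptors, moved less: Grk2 from 77.7 to 84.6 CPM in HIM lines to 111 CPM in D4M and 100.2 CPM in HCmel12, and Grk6 from 63.2 to 73.6 CPM to 167 and 82.4 CPM. Plcb3 and Prkca, the phospholipase and protein kinase C downstream of Gq, lay at 51.6 to 74.5 and 21.2 to 33.2 CPM in HIM lines, against 102 and 74.1 CPM in D4M and 106 and 41.1 CPM in HCmel12. Mme, which degrades endothelins among other peptides, was highest in RET (13.7 CPM) and WT31 (10.7 CPM) and lowest in D4M (0.0721 CPM). Ece2 stayed below 1 CPM in the mean of every line, and Edn2 had 1 count in all.

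Among the proteases that can activate Hgf, Plau, the urokinase that can cleave pro-Hgf, averaged 1336 ± 337 CPM in D4M and at most 1.87 CPM in the other lines (SD, n = 5; adjusted p = 4.08e-19 against RET). Plat, the tissue plasminogen activator, was highest in WT31 (142 ± 24.7 CPM) and D4M (86.4 ± 19.1 CPM) and lowest in RET (3.13 ± 0.171 CPM). The dedicated activator Hgfac had 2 counts in all. The membrane proteases St14 (matriptase) and Hpn (hepsin) reached at most 0.461 CPM, in RET, and 1.63 CPM, in HCmel12. Their inhibitor Spint1 reached 2.52 CPM in B16F10 luc2, and Spint2 was below the filter. Mst1 and its receptor Mst1r, the relatives of Hgf and Met, were below the filter too, with at most 4 and 24 counts in a library. The shedding proteases Adam10 (129 to 385 CPM) and Adam17 (64.4 to 110 CPM), which can release the ectodomains of Met, Kit or Kitl, were found in all lines, both with the highest mean in D4M.

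**Figure D4:**
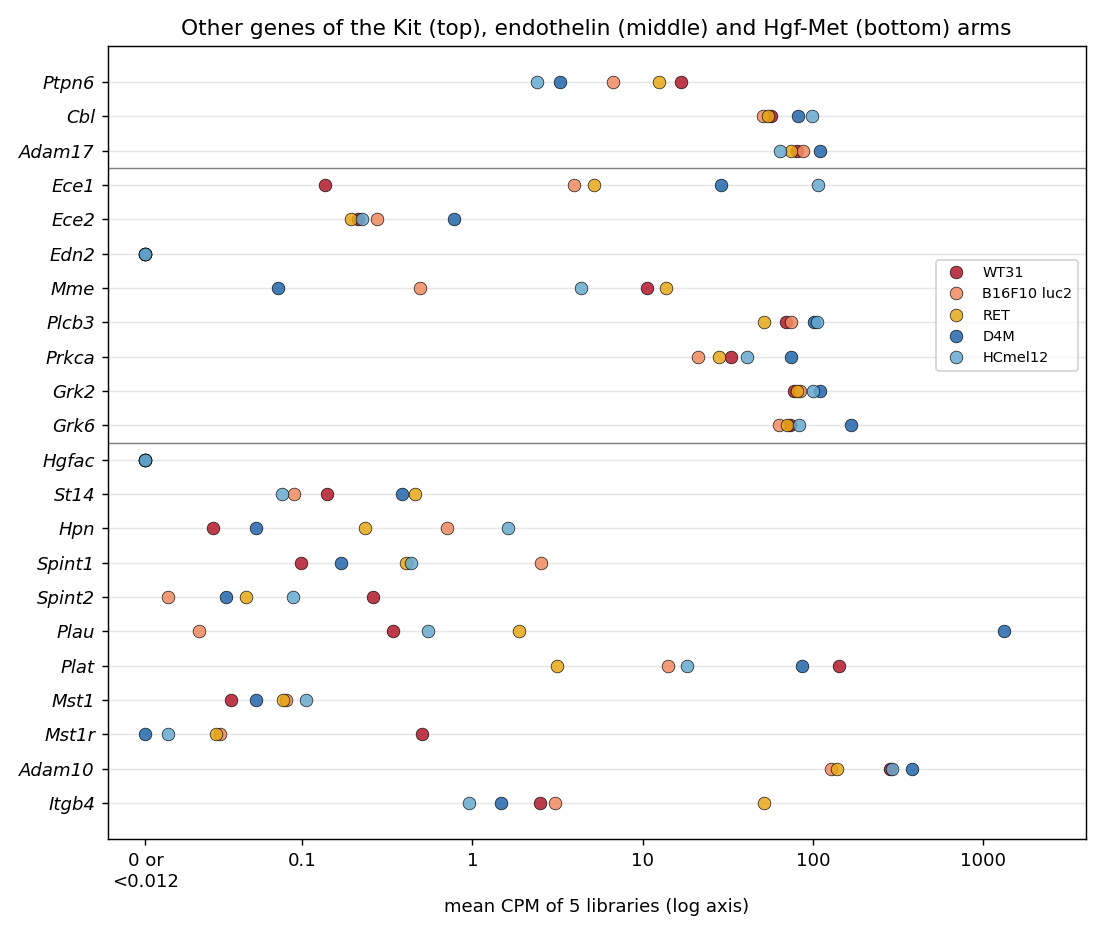
Each point is the mean CPM of 5 libraries of a line on a log axis, for the named genes of the Kit, endothelin and Hgf-Met arms. Ece1 is spread from 0.137 CPM in WT31 to 107 CPM in HCmel12, and Plau stands at 1336 CPM in D4M.

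For each tested gene, the 2 genes with the most similar pattern over the 5 line means were found. The measure was the root mean square difference of centred log2 CPM with a prior count of 2. Nearest to Ednrb was Bmp7 (difference 0.353), with 606 CPM in WT31 and at most 0.105 CPM elsewhere, followed by Nkd1 (0.61), with 630 CPM in WT31 and at most 0.536 CPM elsewhere. Nearest to Ednra were Ramp3 (0.352), at 4.10 CPM in D4M and at most 0.149 CPM elsewhere, and Ccdc9b (0.429). Kitl was followed by Armcx1 (0.612) and Cd248 (0.735), of which Cd248 had 102 CPM in D4M and 0.341 CPM in WT31. Hgf had Slc1a3 (0.919) and Gpr176 (0.997) as its nearest genes, both highest in HCmel12. Met had Lhfpl1 (0.443) and A330069K06Rik (0.509), which were near or below 1 CPM in all lines. No gene came close to Kit: the nearest, the melanosomal transporter gene Oca2 (1.859) and the cell cycle inhibitor Cdkn2b (1.916), differed from it by more than 1.8 log2 units, with Oca2 at 113 CPM in WT31 and 9.51 CPM in HCmel12. Likeness was measured over 5 line means only and is given as a description.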

How the data were processed

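The members and gene lists were chosen with earlier results of these data known. Per the labels and methods, the authors trimmed reads with Trim Galore 0.6.4 and quantified them with kallisto, given as version 0.4.6 in the submitters' processing notes. They deposited estimated counts per gene for 25 libraries and TPM values, of which 24 libraries were used here. Labels call the libraries biological replicates, and p-values measure the spread between them. Gene symbols were matched through GENCODE vM21. Part of the genotype of some lines is not reported here.

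Estimated counts were filtered with filterByExpr (minimum count 10), scaled by TMM (edgeR 4.0.16; factors 0.894 to 1.064), transformed with voom and tested with limma 3.58.1 (R 4.3.3) in 1 fit over 5 lines, leaving 15247 genes. P-values were adjusted by Benjamini-Hochberg over these genes, at a threshold of 0.05. Lines at 0 were set to 3 counts per library for folds; ratios of summed counts carry exact conditional intervals (95%). Members were named in full; of the pathway lists, genes with one sign in all 6 comparisons, relatives and processing enzymes. The code was tested on simulated data. Alternatives were scaling, filter, test (edgeR quasi-likelihood and DESeq2 1.42.0 on rounded counts), TPM with pseudocounts of 1 and 0.1, fold limit, pairwise fits, replicate block and leaving out libraries.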

Additional observations from a re-analysis of the deposited data

How the results depend on the processing

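Of 671 values of single genes under the alternatives other than leaving out 1 library, 654 kept their direction and their side of the threshold, 7 newly passed, 8 no longer passed and 2 changed sign. Both changes of sign were Kitl between B16F10 luc2 and RET, which was not called, at -0.019 on log2(TPM + 0.1) and -0.013 on log2(TPM + 1). Leaving out each library in turn gave 1425 values, of which 1414 kept direction and call; Ednra between WT31 and B16F10 luc2, not called, ranged from -0.002 without B16F10 luc2 replicate 3 to 0.559 without WT31 replicate 3. The number of pathway genes with one sign in all 6 comparisons was 8 and became 2 with a limit of 1 on the log2 fold change, 5 on log2(TPM + 0.1) and 4 on log2(TPM + 1); the cause was not tested.

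Replicate numbers gave no consistent pairing of the libraries: same-numbered libraries of 2 lines correlated at -0.131 to 0.14 in their deviations. Between RET and D4M 2 of these correlations were over 0.1, between RET and HCmel12 2, and in the other pairs of lines none. In RET against HCmel12, 3 RET libraries correlated best with the library of their own number, and in other pairs at most 2 did so. With the replicate block, Ednrb passed between B16F10 luc2 and D4M (adjusted p = 0.0115) and between B16F10 luc2 and HCmel12 (adjusted p = 0.0213), and no other call of the 6 tested members changed. Alternatives for pairs in which both lines had at most 3 counts in every library were not compared. Without D4M replicate 1 and HCmel12 replicate 4, a setting applied to Edn1, the Hgf length and the pathway genes after seeing the data, 14 of 480 calls of pathway genes in pairs of lines changed. Counting error limits Edn1, Edn3, Ednra and the low lines of Ednrb, Hgf and Kit.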
